A study of Homo sapiens with 34 samples.

Results

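Secreted WNT ligands were followed at the RNA level in H1 human embryonic stem cells (ESCs) that were differentiated toward cardiomyocytes with or without knockdown of NKX2-5, ZEB2 or ZNF503. The genes described are WNT2, WNT2B, WNT3, WNT3A, WNT4, WNT5A, WNT5B, WNT6, WNT8A and WNT11, which are 10 of the 19 WNT ligand genes in the counts and 10 of the 23189 genes measured. They were chosen by name, and where a gene had several RefSeq transcripts the one with the largest total count was used. The other 9 ligand genes, WNT1, WNT7A, WNT7B, WNT8B, WNT9A, WNT9B, WNT10A, WNT10B and WNT16, are described only as a comparison.

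Total RNA was sequenced from H1 cells that had been infected with a lentivirus and selected, so the infection and selection are shared by all groups. The control virus for WT cells was either empty or targeted GFP, and the labels do not say which of these each WT library carried. NKX2-5 shRNA, ZEB2 shRNA and ZNF503 shRNA cells were each 1 line, picked among vectors tested for the strongest knockdown, so a difference from WT is a difference of that line. Cells were taken as ESCs at day 0 and at days 2, 6 and 10 of differentiation, with 2 libraries in each of 15 groups. Day 10 of the ZNF503 shRNA line was not analysed here. The WT and ZEB2 shRNA groups of that day are replicates 3 and 4, and the NKX2-5 shRNA group is replicates 1 and 2. The labels do not say whether these replicate sets were handled apart. If they were, set and line cannot be told apart between NKX2-5 shRNA and the others at day 10. The same holds for set and day in WT and ZEB2 shRNA cells from day 6 to day 10. All lines received the same treatment, which acts on WNT signalling itself: the GSK3 inhibitor CHIR99021 for the first 24 hours, the WNT inhibitor IWP2 from day 2 to day 5, and insulin at day 7.

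WNT proteins are secreted signals that carry a lipid. PORCN attaches the lipid, which IWP2 blocks, and WLS carries the modified protein to the cell surface. WNT3, WNT3A and WNT8A are best known for the canonical branch, in which Frizzled and LRP5 or LRP6 receptors stabilise beta-catenin and TCF or LEF factors switch on targets, a step that CHIR99021 imitates inside the cell and that is needed for the primitive streak. WNT5A, WNT5B and WNT11 are best known for signalling through Frizzled and ROR2 without beta-catenin, and canonical signalling has to fall again before cardiac progenitors form.

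The stretches of DNA just before the start sites of WNT2, WNT3A and WNT5A are printed here, the ligands that were called against WT and whose stretch held a searched motif, a choice made after the matches were seen, because the 3 genes knocked down encode transcription factors and because start sites are where such factors are often read. They are the 250 bases before RefSeq start sites on GRCh38.p14, written 5′ to 3′ on the gene's own strand, and capitals mark letters that match a searched motif on either strand. The motifs were CACCTG, the E-box form bound by ZEB2, AAGTG, the core bound by NKX2-5, GATAA, the core bound by GATA factors, and CTTTGA, the core bound by TCF and LEF factors.
WNT2, chr7:117323059-117323308, minus strand: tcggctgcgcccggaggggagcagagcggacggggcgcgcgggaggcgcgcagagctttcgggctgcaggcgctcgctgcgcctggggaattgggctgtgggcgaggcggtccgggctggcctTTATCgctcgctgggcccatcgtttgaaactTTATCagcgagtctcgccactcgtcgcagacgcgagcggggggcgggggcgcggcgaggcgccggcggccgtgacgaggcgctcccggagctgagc
WNT3A, chr1:228006748-228006997, plus strand: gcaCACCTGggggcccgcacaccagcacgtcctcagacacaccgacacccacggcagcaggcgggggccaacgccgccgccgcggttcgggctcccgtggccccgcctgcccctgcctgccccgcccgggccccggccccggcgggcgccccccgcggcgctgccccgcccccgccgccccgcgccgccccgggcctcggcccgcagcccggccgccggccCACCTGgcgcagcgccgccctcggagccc
WNT5A first start, chr3:55487307-55487556, minus strand: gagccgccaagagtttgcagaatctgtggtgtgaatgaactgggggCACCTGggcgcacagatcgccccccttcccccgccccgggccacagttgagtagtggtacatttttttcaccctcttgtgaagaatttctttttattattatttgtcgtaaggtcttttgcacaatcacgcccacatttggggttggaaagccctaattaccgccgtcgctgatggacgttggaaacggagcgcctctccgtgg
WNT5A second start, chr3:55481399-55481648, minus strand: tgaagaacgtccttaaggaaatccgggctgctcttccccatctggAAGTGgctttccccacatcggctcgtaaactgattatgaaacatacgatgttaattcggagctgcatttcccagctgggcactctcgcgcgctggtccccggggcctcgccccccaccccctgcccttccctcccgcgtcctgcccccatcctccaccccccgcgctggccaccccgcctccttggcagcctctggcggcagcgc
The WNT2 window held GATAA 2 times, read as TTATC at 127 and 96 bases before the start. WNT3A held CACCTG at 247 and 29 bases before its start. One WNT5A window held CACCTG at 204 bases and the other AAGTG at 205 bases, and the counts do not say which WNT5A start was in use. Matches in these 4 windows did not overlap one another. The windows of WNT3 and WNT4, which were also called against WT, held no match.

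Such letters are common before start sites. Among 35116 RefSeq start sites, windows of the same length held CACCTG in 17.5%, GATAA in 20.4%, CTTTGA in 11.2% and AAGTG in 37.6%. Of 12 start sites matched to 9 of the ligand genes, 3 held CACCTG, 2 held GATAA, 2 held AAGTG and 0 held CTTTGA. WNT11 had no entry. A match shows only that the letters are present.

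Library totals ran from 9189943 to 90814577 mapped reads counted, with a median of 32191176, and they were lowest at day 10, at 9189943 to 29549874. Levels are given as CPM, a gene's share of its library's total scaled to a common depth. A library with 3 counts or fewer was treated as being at the floor, and a fold against a group at the floor is given as a lower bound. WNT3, WNT5A, WNT5B and WNT11 were above the floor in all 30 libraries, WNT2B and WNT4 in 28, WNT3A in 16, WNT8A in 12, WNT6 in 9 and WNT2 in 8. Each targeted gene was lower in its own line than in WT at day 6: NKX2-5 was at 0.993 and 0.761 CPM in NKX2-5 shRNA cells against 84.2 and 50.5 CPM in WT, ZEB2 at 54.6 and 57.1 against 96.8 and 94.1 CPM, and ZNF503 at 0.611 and 0.648 against 8.71 and 9.33 CPM. These reductions were not particular to the line. At day 6 ZEB2 was lower still in NKX2-5 shRNA cells, at 20.5 CPM in both libraries, and in ZNF503 shRNA cells, at 10.9 and 12.7 CPM, and ZNF503 was at 0.588 and 0.901 CPM in NKX2-5 shRNA cells. At day 2 ZNF503 RNA in its own line overlapped WT, with 0.999 and 1.75 CPM against 1.09 and 1.96, and at day 0 all 3 targets were under 0.5 CPM in every library. Several ligand genes overlap another gene on the opposite strand: WNT2 with CFTR, WNT2B with ST7L, WNT5B with FBXL14, and WNT5A with the antisense RNA WNT5A-AS1. WNT2B, WNT4 and WNT11 each overlap an unnamed long noncoding RNA in the same way. The library kit kept the strand, but whether the counting used it is not given in the sources used here, so reads of such pairs cannot be told apart with certainty. In bulk RNA, fewer cells of a type and less RNA per cell cannot be told apart.

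Differences are log2 fold changes ± SE from edgeR's quasi-likelihood test, with p-values adjusted over all genes tested by the Benjamini-Hochberg method. A gene was called at the study's thresholds, which were 2-fold at 10% false discovery rate (FDR) for day 0, 4-fold at 10% for day 2, and 8-fold at 1% for days 6 and 10. Results at 5% FDR with any fold are given beside them. The fold used for a call is the fitted one. Against a group at the floor the fitted fold depends on edgeR's prior count, and the lower bound printed can lie under the threshold. With 2 libraries a group, the p-values rest on the spread within groups, pooled over all groups of a fit and moderated across genes. They do not measure the spread of the compared groups alone, so a library of another line can change them. The study calls the libraries of a group biological replicates.

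The 10 ligands took turns in WT cells. WNT3, WNT3A and WNT8A peaked at day 2, WNT5A peaked at day 6, and WNT11, WNT5B and WNT2 were highest at day 10. Per kilobase of exon, which allows genes to be set side by side, WNT5A at 5.76 and WNT3 at 5.23 CPM per kb led at day 0, and their libraries overlapped. WNT3 led at day 2 with 18.9 CPM per kb, followed by WNT5A with 8.92. At day 6 WNT5A reached 24.0 ± 5.13 (SD, n = 2) and WNT11 21.0 ± 0.970, a difference within the spread of the WNT5A libraries. WNT11 led at day 10 with 40.5 CPM per kb, ahead of WNT5A with 15.03, WNT5B with 8.21 and WNT2 with 4.96.

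**Figure D1:**
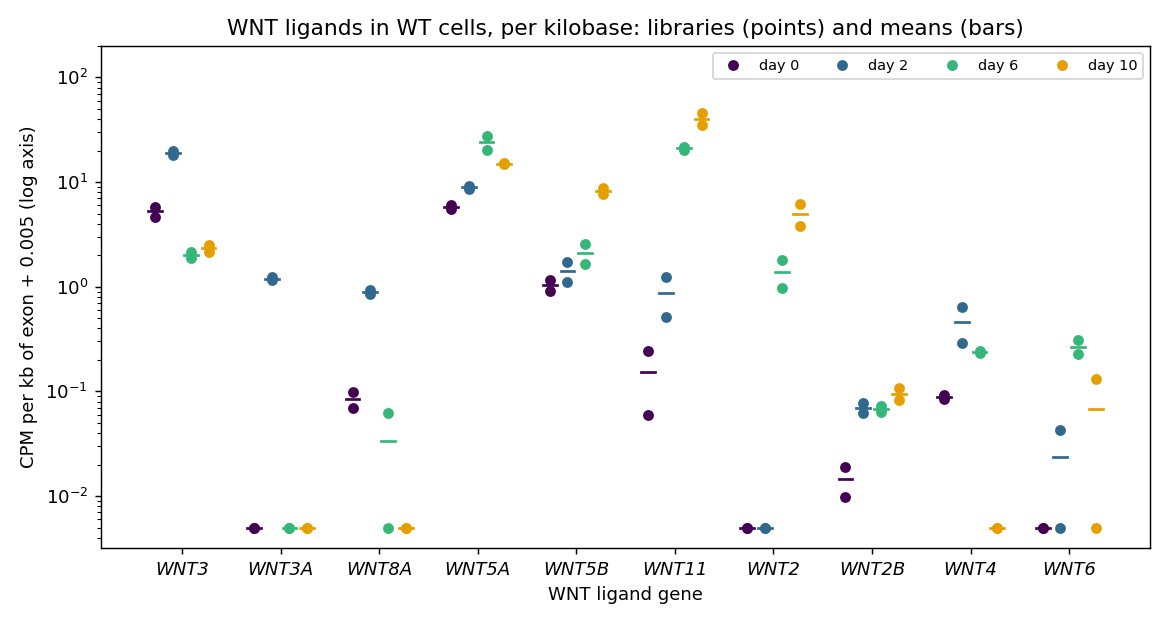
Level of each WNT ligand in WT cells as CPM per kilobase of exon plus 0.005 on a log axis, by day, with points for the 2 libraries and bars for their mean. WNT3 stands highest at day 2, WNT5A and WNT11 lie together at day 6, and WNT11 stands highest at day 10, while points at the bottom edge are libraries without reads.

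Over time, 33 of 110 gene and step combinations were called, 22 up and 11 down, of 97 that could be tested, and 59 passed 5% FDR, against 49.4% of all tests. In WT cells, 5 of 10 ligands were called from day 0 to day 2 against 8.36% of all genes, 5 from day 2 to day 6 against 8.35%, and 1 from day 6 to day 10 against 3.94%. Steps in NKX2-5 shRNA cells gave 3 calls against 8.94%, 4 against 9.04% and 0 against 5.53%. Those in ZEB2 shRNA cells gave 4 against 10.7%, 5 against 8.14% and 0 against 4.1%. ZNF503 shRNA cells gave 3 calls at day 2 against 4.03% and 3 at day 6 against 9.82%. The 2 counts of 0, in the last step of NKX2-5 and ZEB2 shRNA cells, were also 0 in DESeq2, and 3 and 6 ligands there had an unadjusted p under 0.05. Of the 7 calls in NKX2-5 shRNA cells, only the 2 for WNT11 were called under every alternative run, and the other 5, for WNT3A, WNT4 and WNT8A, were lost without either of the line's day 0 libraries or its day 2 replicate 2 (adjusted p 0.0137 to 0.302 over all fits without 1 library that lost one). The falls to day 6 of WNT8A in ZEB2 shRNA cells and of WNT3A and WNT8A in ZNF503 shRNA cells were lost without day 6 replicate 1 of the line (adjusted p at most 0.0231).

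**Figure D2:**
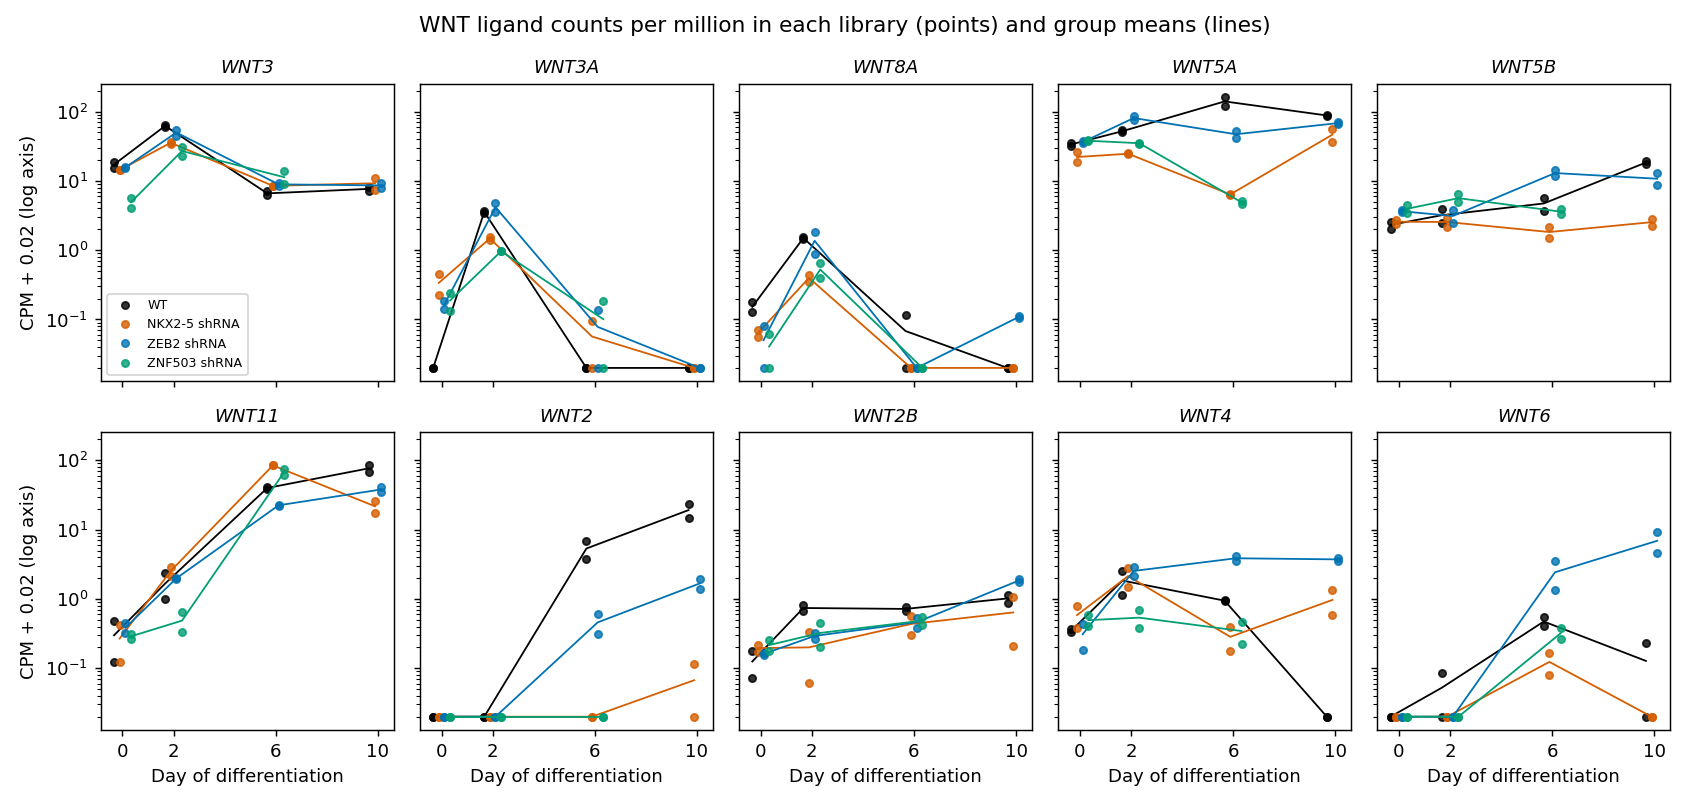
CPM plus 0.02 on a log axis against day of differentiation for the 10 ligands, with points for single libraries and lines through group means of WT, NKX2-5 shRNA, ZEB2 shRNA and ZNF503 shRNA cells. WNT5A at day 6 shows NKX2-5 and ZNF503 shRNA cells at 4.68 to 6.45 CPM below WT at 119 and 161 CPM, and WNT2 is at 3.75 CPM or more only in WT libraries.

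Against WT of the same day, 13 of 110 gene and line combinations were called, 5 higher and 8 lower, of 82 that could be tested, and 40 passed 5% FDR, 11 higher and 29 lower. At day 0 the study's threshold called 1, 1 and 2 ligands in the NKX2-5, ZEB2 and ZNF503 lines, against 4.03%, 2.2% and 2.56% of all genes. No ligand was called at day 2, where 1.19%, 0.133% and 2.8% of all genes were, and DESeq2 also called 0, while 5, 3 and 7 ligands had an unadjusted p under 0.05. Day 6 gave 2, 1 and 2 calls against 4.71%, 0.462% and 3.91%. Day 10 gave 2 and 2 in the NKX2-5 and ZEB2 lines against 7.31% and 1.46%.

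At 5% FDR the picture over the 10 ligands was broader. Day 0 had 2, 0 and 1 in the same order of lines, against 15.9%, 3.93% and 7.53% of all genes. The 0 was also 0 in DESeq2, with 2 ligands at an unadjusted p under 0.05 in edgeR. Day 2 had 4 (26.7%), 1 (0.49%) and 6 (26.9%). Day 6 had 6 (49.1%), 6 (11%) and 5 (55.7%). Day 10 had 5 (43.9%) in the NKX2-5 and 4 (18.2%) in the ZEB2 line. The percentages are shares of the genes tested, while 6 ligands could be tested at day 0 and 8 on each later day. In NKX2-5 and ZNF503 shRNA cells at day 6 so many genes passed that the counts are not read as particular to the ligands. As a description, the median log2 fold change over the 8 ligands tested at day 2 was -0.98 in NKX2-5, 0.07 in ZEB2 and -1.45 in ZNF503 shRNA cells, while the median over all genes tested was within 0.0305 of 0 in every comparison with WT. The 3 lines share the WT libraries of a day, so their values are set side by side only.

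**Figure D3:**
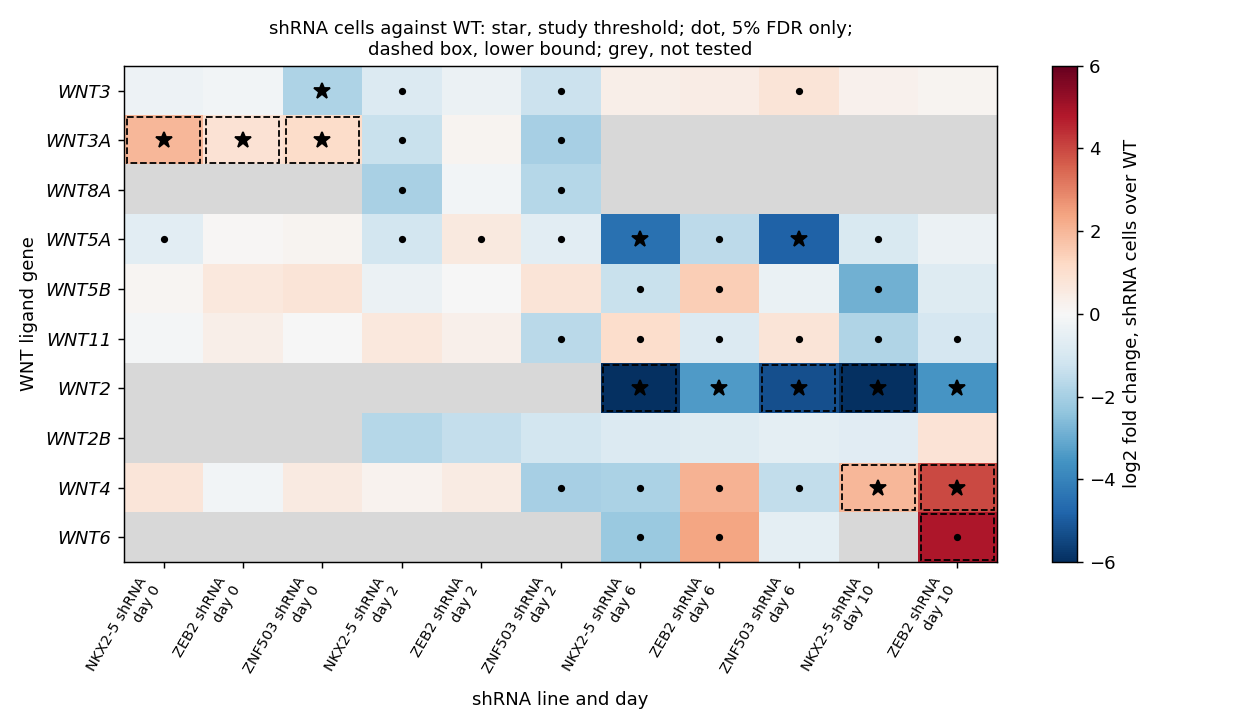
Log2 fold change of each ligand in shRNA cells over WT for the 11 comparisons, on a colour scale from -6 to 6. A star marks a call at the study's threshold, a dot 5% FDR only, and a dashed box a fold that is a lower bound. Grey marks pairs not tested, and also WNT6 in NKX2-5 shRNA cells at day 10, which was tested with both groups at the floor and did not pass. The stars lie at WNT3A and WNT3 at day 0, at WNT2 and WNT5A at day 6, and at WNT2 and WNT4 at day 10.

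WNT3 (chr17:44839872-44910520, minus strand, GRCh37), a canonical ligand of the primitive streak, was at 19 and 15.4 CPM in the 2 WT libraries at day 0, at 59.3 and 64.8 at day 2, at 7.02 and 6.13 at day 6 and at 7.11 and 8.17 at day 10. It rose by 1.90 ± 0.16 on the log2 scale to day 2 (edgeR, adjusted p = 1.23e-05, below the 4-fold threshold) and fell by 3.26 ± 0.17 to day 6 (edgeR, adjusted p = 1.76e-07). The day 2 peak stood apart from every other day.
ZNF503 shRNA cells held 5.73 and 4.03 CPM at day 0 and 23.1 and 30.8 CPM at day 2, below all WT libraries of those days. The log2 fold change to WT was -1.83 ± 0.18 at day 0 (edgeR, adjusted p = 0.000212), which was called under every alternative run, and -1.27 ± 0.15 at day 2 (edgeR, adjusted p = 1.99e-05). At day 6 the same line was above WT, at 13.7 and 8.87 CPM, with a log2 fold change of 0.77 ± 0.23 (edgeR, adjusted p = 0.0135) that no longer passed without ZNF503 shRNA replicate 1 or WT replicate 2 (adjusted p 0.0774 to 0.14). The fall from day 2 to day 6 in this line was smaller than in WT, with a difference of 2.00 ± 0.31 between the log2 changes (edgeR, adjusted p = 2.68e-05).
NKX2-5 shRNA cells had 14.5 and 14.1 CPM at day 0 and 34.2 and 36.8 at day 2, and were lower than WT at day 2 by a log2 fold change of -0.84 ± 0.15 (edgeR, adjusted p = 0.000927). ZEB2 shRNA cells had 44.9 and 54.8 CPM at day 2, which did not pass the test.

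WNT3A (chr1:228194699-228248972, plus strand), the close relative of WNT3, had no reads in either WT library at days 0, 6 and 10 and stood at 3.67 and 3.43 CPM at day 2. It rose at least 44.8-fold and fell at least 35.1-fold again (edgeR, adjusted p = 0.000177 and 0.000139). At day 2 NKX2-5 shRNA cells held 1.38 and 1.53 CPM and ZNF503 shRNA cells 0.943 and 0.945 CPM, all below WT, while ZEB2 shRNA cells held 3.50 and 4.79 CPM, on both sides of WT. The log2 fold changes were -1.34 ± 0.28 in NKX2-5 (edgeR, adjusted p = 0.00325) and -1.97 ± 0.29 in ZNF503 shRNA cells (edgeR, adjusted p = 0.000156).
At day 0 all 6 shRNA libraries had some WNT3A reads, 0.205 and 0.430 CPM in NKX2-5, 0.123 and 0.166 in ZEB2 and 0.225 and 0.111 in ZNF503 shRNA cells, where WT had none. These levels were at least 4.01-fold, 1.82-fold and 2.12-fold above the WT floor (edgeR, adjusted p = 0.0111, 0.0889 and 0.056). The fitted folds that made them calls depend on the prior count. DESeq2 called none of them. The ZEB2 call was lost on leaving out any day 0 library other than NKX2-5 shRNA replicate 1, and the ZNF503 call without either ZNF503 shRNA or WT library or without NKX2-5 shRNA replicate 2, with adjusted p-values of 0.126 to 0.414 and 0.152 to 0.261 where a fit was possible. The NKX2-5 call was lost without its replicate 2.

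WNT8A (chr5:137419679-137428054, plus strand), another canonical ligand of early mesoderm, was scarce even at its peak, with 1.54 and 1.41 CPM in WT at day 2 against 0.107 and 0.157 at day 0. Its WT changes were 3.49 ± 0.68 up to day 2 and -4.55 ± 0.79 down to day 6 on the log2 scale (edgeR, adjusted p = 0.00298 and 0.00117). WT at day 6 held 0 and 0.0962 CPM, the latter from 4 reads, so the size of the fall is uncertain. Without WT day 2 replicate 1 the fall was -4.49 and missed the study's threshold. At day 2 it was at 0.425 and 0.330 CPM in NKX2-5 shRNA cells, at 0.382 and 0.630 in ZNF503 shRNA cells and at 0.855 and 1.84 in ZEB2 shRNA cells. The first 2 lines lay below WT, by -1.96 ± 0.49 and -1.73 ± 0.48 (edgeR, adjusted p = 0.00925 and 0.0145). Without WT replicate 1, or without replicate 1 of the line itself, they no longer passed, with adjusted p-values of 0.0578 and 0.0582 in NKX2-5 and of 0.0864 and 0.191 in ZNF503 shRNA cells.

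The 3 canonical ligands of day 2 were therefore all lower in NKX2-5 and in ZNF503 shRNA cells. The 6 mesendoderm markers TBXT, MIXL1, EOMES, GSC, MESP1 and LHX1 summed to 1060 to 1136 CPM in WT, 1026 to 1146 in NKX2-5, 1073 to 1164 in ZEB2 and 400 to 508 CPM in ZNF503 shRNA cells, with 5 or 6 of 6 over 1 CPM in each line and none at the floor. The sum was lower in ZNF503 shRNA cells, where its part in the ligand result was not tested and ZNF503 RNA itself overlapped WT, and the NKX2-5 range overlapped WT.

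WNT5A (chr3:55499743-55524567, minus strand), a ligand of the branch without beta-catenin, had the largest fold against WT among the 4 ligands above the floor in every library. WT libraries held 32.1 and 35.2 CPM at day 0, 50.3 and 53.9 at day 2, 161 and 119 at day 6 and 86.3 and 89.3 at day 10. NKX2-5 shRNA cells held 25.6 and 18.5, then 24.3 and 24.9, then 6.25 and 6.45, then 36.8 and 56.1 CPM. ZNF503 shRNA cells held 37.3 and 38.5, 35.4 and 34.5, and 4.68 and 5.11 CPM at days 0, 2 and 6. From day 2 to day 6 WNT5A fell in both lines and rose in WT, by -1.97 ± 0.26, -2.85 ± 0.16 and 1.41 ± 0.15 on the log2 scale (edgeR, highest adjusted p = 0.00061), so that the groups lay far apart at day 6.
ZEB2 shRNA cells held 35.2 and 37.2 CPM at day 0, 75.8 and 85.3 at day 2, 52.2 and 41.9 at day 6 and 66.4 and 69.9 at day 10, so their libraries lay above WT at day 2 and below it at days 6 and 10, the day 10 difference of -0.37 ± 0.23 not passing the test (edgeR, adjusted p = 0.292).
At day 6 the log2 fold changes to WT were -4.47 ± 0.19 in NKX2-5 and -4.84 ± 0.20 in ZNF503 shRNA cells (edgeR, adjusted p = 3.25e-09 and 4.29e-09), both called under every alternative run, and -1.56 ± 0.16 in ZEB2 shRNA cells (edgeR, adjusted p = 5.9e-05). Differences at day 2 were -1.11 ± 0.11, -0.63 ± 0.10 and 0.59 ± 0.10 in the lines for NKX2-5, ZNF503 and ZEB2 (edgeR, adjusted p = 1.15e-05, 0.000406 and 0.0181). Only the ZEB2 one was lost in a fit without 1 library, namely ZEB2 shRNA replicate 2 or either WT library (adjusted p 0.0975 to 0.209).
NKX2-5 shRNA cells were also lower at day 0, by -0.63 ± 0.14, and at day 10, by -0.92 ± 0.23 (edgeR, adjusted p = 0.0117 and 0.0161), and both were lost without either WT library of the day (adjusted p 0.056 to 0.106 and 0.0696 to 0.0767).
The change from day 2 to day 6 was tested against that in WT. It differed by -3.37 ± 0.26 in NKX2-5, by -4.24 ± 0.26 in ZNF503 and by -2.18 ± 0.25 in ZEB2 shRNA cells (edgeR, adjusted p = 2.35e-09, 1.17e-10 and 1.04e-05). From day 6 to day 10 the NKX2-5 shRNA line regained WNT5A while WT lost some, a difference of 3.54 ± 0.26 (edgeR, adjusted p = 1.45e-09).

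WNT11 (chr11:75897369-75921780, minus strand), which also signals without beta-catenin and is known from heart formation, was at 0.454 and 0.105 CPM in WT at day 0, 0.965 and 2.33 at day 2, 41.2 and 38.6 at day 6 and 67.2 and 86.7 at day 10. Its rise to day 6 was 4.71 ± 0.37 on the log2 scale in WT, 5.07 ± 0.41 in NKX2-5, 3.50 ± 0.20 in ZEB2 and 6.96 ± 0.24 in ZNF503 shRNA cells, the highest adjusted p being 5.11e-05 (edgeR). Unlike WNT5A, it was above WT at day 6 in 2 lines, with 84.3 and 84.7 CPM in NKX2-5 and 74.5 and 60.7 in ZNF503 shRNA cells. ZEB2 shRNA cells lay below, at 21.8 and 23.0 CPM.
Those day 6 differences were 1.08 ± 0.13, 0.76 ± 0.13 and -0.83 ± 0.13 (edgeR, adjusted p = 2.36e-05, 0.000404 and 0.00145), none reaching 8-fold. By day 10 NKX2-5 shRNA cells had dropped to 17.3 and 26.1 CPM and ZEB2 shRNA cells stood at 41.3 and 34.4, below both WT libraries. Differences there were -1.82 ± 0.27 in NKX2-5 (edgeR, adjusted p = 0.00204) and -1.03 ± 0.26 in ZEB2 shRNA cells (edgeR, adjusted p = 0.0352, but 0.0884 to 0.262 without any 1 of the 2 ZEB2 shRNA and 2 WT libraries). The NKX2-5 shRNA line thus moved from above to below WT, and its change from day 6 to day 10 differed from that in WT by -2.91 ± 0.41 (edgeR, adjusted p = 1.17e-05).
At day 2 ZNF503 shRNA cells, with 0.618 and 0.315 CPM, were lower by -1.64 ± 0.45 (edgeR, adjusted p = 0.015), a difference lost without ZNF503 shRNA or WT replicate 2 (adjusted p 0.0683 and 0.219).

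WNT5B (chr12:1639057-1756378, plus strand), the relative of WNT5A, was at 2.03 and 2.56 CPM in WT at day 0, 2.48 and 3.86 at day 2, 5.72 and 3.68 at day 6 and 19.4 and 17.3 at day 10, a rise of 2.02 ± 0.29 over the last step (edgeR, adjusted p = 0.000249). NKX2-5 shRNA cells stayed at 1.47 to 2.93 CPM in all 8 libraries, with 2.19 and 2.84 at day 10. Their difference to WT was -1.34 ± 0.29 at day 6 and -2.86 ± 0.34 at day 10 (edgeR, adjusted p = 0.00224 and 0.000937).
ZEB2 shRNA cells held 14.3 and 11.6 CPM at day 6, above both WT libraries, and 12.8 and 8.66 at day 10, below both. They exceeded WT by 1.49 ± 0.27 at day 6 (edgeR, adjusted p = 0.00362, or 0.0561 without ZEB2 shRNA replicate 1), and the day 10 difference of -0.79 ± 0.31 did not pass (edgeR, adjusted p = 0.121). Their change from day 6 to day 10 differed from that in WT by -2.27 ± 0.41 (edgeR, adjusted p = 0.000679). The 2 relatives moved in opposite directions in this line at day 6, since WNT5A was below WT. ZNF503 shRNA cells had 3.87 and 3.28 CPM at day 6, on both sides of the lower WT library.

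WNT2 (chr7:116915505-116963206, minus strand), known from the early heart and lung, had no reads in any library of days 0 and 2. WT held 6.89 and 3.75 CPM at day 6 and 14.7 and 23.6 at day 10. NKX2-5 shRNA cells had none at day 6 and 0 and 0.0945 CPM at day 10, and ZNF503 shRNA cells had none at day 6. ZEB2 shRNA cells lay between, with 0.583 and 0.295 CPM at day 6 and 1.95 and 1.37 at day 10. The ZEB2 shRNA libraries lay below every WT library and above every NKX2-5 shRNA library on both days, while NKX2-5 and ZNF503 shRNA cells were both at 0 at day 6 and set no order between them.
WNT2 fell short of WT at day 6 by a factor of at least 62.5 in the NKX2-5 line and at least 38.8 in the ZNF503 line, and at day 10 by at least 134 in the NKX2-5 line (edgeR, adjusted p = 7.76e-06, 1.92e-05 and 0.000361), and all 3 were called under every alternative run. In ZEB2 shRNA cells the log2 fold change was -3.40 ± 0.49 at day 6 and -3.52 ± 0.51 at day 10 (edgeR, adjusted p = 0.00134 and 0.00575). These 2 missed the study's threshold in fits without 1 library: at day 6 without ZEB2 shRNA replicate 1 or 2 or WT replicate 1 (adjusted p 0.00916 to 0.0215), and at day 10 without any 1 of the 4 ZEB2 shRNA and WT libraries (adjusted p 0.0353 to 0.0715) or with the rows of a gene summed.
The cardiac markers TNNT2, MYH6, MYH7, MYL7, MYL4, ACTC1, ACTN2, TNNI1 and TBX5 were also highest in WT and next in ZEB2 shRNA cells. Their summed level at day 6 was 11470 to 14390 CPM in WT, 6565 to 7040 in ZEB2, 506 to 651 in ZNF503 and 190 to 238 in NKX2-5 shRNA cells, with 9, 9, 8 and 5 of 9 markers over 1 CPM and none at the floor. At day 10 it was 15970 to 19130 in WT, 4323 to 6285 in ZEB2 and 803 to 838 CPM in NKX2-5 shRNA cells. The 8 endoderm and liver markers, AFP, APOA2, TTR, ALB, RBP4, FABP1, FOXA2 and SOX17, summed to 3236 to 3335 CPM in NKX2-5, 2397 to 2530 in ZNF503, 310 to 437 in ZEB2 and 328 to 672 in WT cells at day 6, higher in the first 2 lines and overlapping between the other two groups. At day 10 these 8 summed to 27640 to 39350 CPM in NKX2-5 and 6648 to 8053 in ZEB2 shRNA cells, both above WT at 1496 to 3699. Blood markers HBG1, HBG2, HBE1, HBZ, GATA1, KLF1 and PF4 summed at day 10 to 1943 to 2342 CPM in NKX2-5 shRNA cells. They summed to 6.30 to 9.73 in ZEB2 shRNA cells and 16.8 to 88.9 in WT. The part of cells with cardiac, endoderm or blood markers in the WNT2, WNT5A and other day 10 results was not tested.

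WNT2B (chr1:113009163-113072787, plus strand), a canonical relative of WNT2, was low throughout, between 0.0413 and 1.92 CPM over all 30 libraries. In WT it was at 0.0534 and 0.157 CPM at day 0 and at 0.643 and 0.797 at day 2, a rise of 2.74 ± 0.64 (edgeR, adjusted p = 0.00595). It could not be tested against WT at day 0, and at days 2, 6 and 10 no line passed 5% FDR in edgeR, with log2 fold changes at day 2 of -1.72 ± 0.66 in NKX2-5 and -1.42 ± 0.64 in ZEB2 shRNA cells (edgeR, adjusted p = 0.067 and 0.536). Its highest values were 1.73 and 1.92 CPM in ZEB2 shRNA cells at day 10, which were above their own day 6 by 2.13 ± 0.47 (edgeR, adjusted p = 0.00126).

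WNT4 (chr1:22443806-22470462, minus strand), known from kidney and gonad formation, was at 0.347 and 0.314 CPM in WT at day 0, 1.13 and 2.51 at day 2, 0.910 and 0.938 at day 6 and without reads at day 10. Of the 2 WT calls, the rise to day 2 of 2.45 ± 0.55 (edgeR, adjusted p = 0.00609) was lost without WT day 2 replicate 2 (adjusted p = 0.0691). The fall to day 10, at least 3.87-fold (edgeR, adjusted p = 0.00219), was lost without WT day 6 replicate 2 or day 10 replicate 3 (adjusted p 0.0101 and 0.0188).
ZEB2 shRNA cells kept it, with 4.15 and 3.54 CPM at day 6 and 3.52 and 3.88 at day 10, above every WT library. The difference was 2.06 ± 0.41 at day 6 (edgeR, adjusted p = 0.00559, or 0.0858 without ZEB2 shRNA replicate 1) and at least 15.5-fold at day 10 (edgeR, adjusted p = 0.006). NKX2-5 shRNA cells had 0.368 and 0.160 CPM at day 6, below WT by -1.92 ± 0.50 (edgeR, adjusted p = 0.00734). Without their replicate 2 that difference was -1.33 and no longer passed. Yet at day 10 they had 0.572 and 1.32 CPM, at least 3.97-fold above WT (edgeR, adjusted p = 0.00726). There, and in the WT fall above, the 8-fold threshold was met only by the fitted fold, which depends on the prior count. Both day 10 calls were lost at 1% FDR without any 1 of the ZEB2 shRNA or WT libraries of that day, with adjusted p-values of 0.0414 to 0.0502 for ZEB2 and 0.0221 to 0.0483 for NKX2-5 shRNA cells.
ZNF503 shRNA cells stayed at 0.204 to 0.675 CPM at all days and missed the WT rise, with 0.359 and 0.675 CPM at day 2. They were below WT by -1.97 ± 0.51 at day 2 and -1.46 ± 0.52 at day 6 (edgeR, adjusted p = 0.0103 and 0.0311). The first was lost without ZNF503 shRNA replicate 1 or WT replicate 2 (adjusted p 0.124 and 0.173), and the second without ZEB2 shRNA replicate 1, ZNF503 shRNA replicate 1 or either WT library (adjusted p 0.0577 to 0.163).

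WNT6 (chr2:219724528-219738955, plus strand), a ligand best known from surface ectoderm and somites, was nearly absent from WT, with 0.520 and 0.385 CPM at day 6 and 0 and 0.215 at day 10. ZEB2 shRNA cells held 1.35 and 3.47 CPM at day 6 and 9.11 and 4.65 at day 10, after none at days 0 and 2. They exceeded WT by 2.35 ± 0.58 at day 6 and at least 28.8-fold at day 10 (edgeR, adjusted p = 0.02 and 0.0109), neither of which met the study's 1% FDR. In fits without 1 library the day 6 difference was lost without ZEB2 shRNA replicate 2 or either WT library (adjusted p 0.0679 to 0.2), and the day 10 difference without either ZEB2 shRNA library or WT replicate 3 (adjusted p 0.0542 to 0.099) and in DESeq2 (adjusted p = 0.055). The rise within ZEB2 shRNA cells from day 2 to day 6, at least 31.0-fold (edgeR, adjusted p = 4.31e-05), was called under every alternative run.
NKX2-5 shRNA cells had 0.147 and 0.0601 CPM at day 6, lower than WT by -2.21 ± 0.78 (edgeR, adjusted p = 0.0339), which did not hold without their replicate 2 or either WT library (adjusted p 0.0546 to 0.242).
Sums of other marker sets also differed from WT in ZEB2 shRNA cells at day 10, in both directions. Endoderm and liver markers were higher, at 6648 to 8053 against 1496 to 3699 CPM. Neural markers PAX6, SOX1, NEUROD1, ELAVL3, STMN2 and DCX were lower, at 6.70 to 8.19 against 30.7 to 32.05 CPM. The blood markers were lower too, at 6.30 to 9.73 against 16.8 to 88.9 CPM. The surface ectoderm markers KRT5, KRT14, TP63, TFAP2A and GRHL3 summed to 21.97 to 31.57 CPM against 0.258 to 0.430 in WT at day 10, with 2 of 5 over 1 CPM and KRT5 at the floor. At day 6 these markers summed to 9.365 to 9.722 CPM in ZEB2 shRNA cells against 6.977 to 8.372 in WT. The epicardial and mesenchymal markers WT1, TBX18, TCF21, UPK3B, COL1A1 and COL3A1 summed at day 10 to 4380 to 4940 in ZEB2 shRNA cells against 608 to 952 CPM in WT. Of these 6, 5 were over 1 CPM in ZEB2 shRNA cells and 6 in WT. In NKX2-5 shRNA cells at day 10 the same sum was 2250 to 4267 CPM. At day 6 it was 238 to 289 CPM in ZEB2 shRNA cells, below WT at 380 to 572. The part of cells with any of these marker sets in the WNT4 and WNT6 results was not tested.

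The shRNA lines were also compared with one another. Of 100 combinations, 74 could be tested, 14 were called and 35 passed 5% FDR, against 4.07% and 30.4% of all tests. NKX2-5 and ZNF503 shRNA cells at day 6 had 0 ligands called and 0 at 5% FDR in edgeR, with 2 at an unadjusted p under 0.05 there and 1 at 5% FDR in DESeq2. In that comparison 0.395% of all genes tested were called and 14.7% passed 5% FDR, so these counts are not read as particular to the ligands. ZEB2 shRNA cells had 3 ligands called against each of the other lines at day 6, WNT2, WNT4 and WNT6 against NKX2-5 and WNT2, WNT4 and WNT5A against ZNF503 shRNA cells. The shares of all genes called there were 4.59% and 3.48%. WNT2 was at least 5.15-fold and at least 3.2-fold higher in ZEB2 than in NKX2-5 and ZNF503 shRNA cells. The log2 fold change of WNT6 in NKX2-5 over ZEB2 shRNA cells was -4.56 ± 0.70 (edgeR, highest adjusted p of the 3 = 0.00346). Both WNT2 bounds lie under 8-fold, so the WNT2 calls rest on fitted folds that depend on the prior count. Both WNT2 calls were lost without ZEB2 shRNA replicate 1, the first also without NKX2-5 shRNA replicate 2 (adjusted p 0.011 and 0.0353) and the second without either ZNF503 shRNA library (adjusted p 0.0255 to 0.0512). The log2 fold change of ZEB2 over ZNF503 shRNA cells was 3.53 ± 0.48 for WNT4, 3.28 ± 0.19 for WNT5A and -1.59 ± 0.13 for WNT11, and that of NKX2-5 over ZEB2 shRNA cells was -3.98 ± 0.47, -2.90 ± 0.18 and 1.91 ± 0.13 (edgeR, highest adjusted p = 8.74e-05), of which the WNT11 differences and that of WNT5A to NKX2-5 shRNA cells stayed under 8-fold. WNT4 and WNT5A were thus highest, and WNT11 lowest, in ZEB2 shRNA cells among the 3 knockdown lines at day 6. Whether the change between days differed from that in WT was tested in 80 combinations, with 8 called and 19 at 5% FDR, against 1.92% and 17.6% of all tests.

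Other parts of the pathway were counted from lists of named genes, as the share of each list that differed from WT at 5% FDR. The background percentages given above are shares of the genes tested, while these list shares keep untested genes, so the bases differ. Of the 9 other ligands, 5, 3, 2 and 3 could be tested at days 0, 2, 6 and 10. In ZEB2 shRNA cells at day 10, 2 of the 3 tested were higher at 5% FDR and 0 lower, where 18.2% of all genes tested passed. Only WNT10B and WNT9B were called in comparisons with WT. WNT10B was at least 7.46-, 10.8- and 3.81-fold higher at day 0 in NKX2-5, ZEB2 and ZNF503 shRNA cells, where WT was at the floor. At day 2 the ZNF503 line exceeded WT in WNT10B at least 4.17-fold (edgeR, adjusted p = 0.0341). WNT9B in the NKX2-5 line lay below WT at least 4.44-fold at day 0 and at least 4.11-fold at day 2 (edgeR, adjusted p = 0.0425 and 0.0314).

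**Figure D4:**
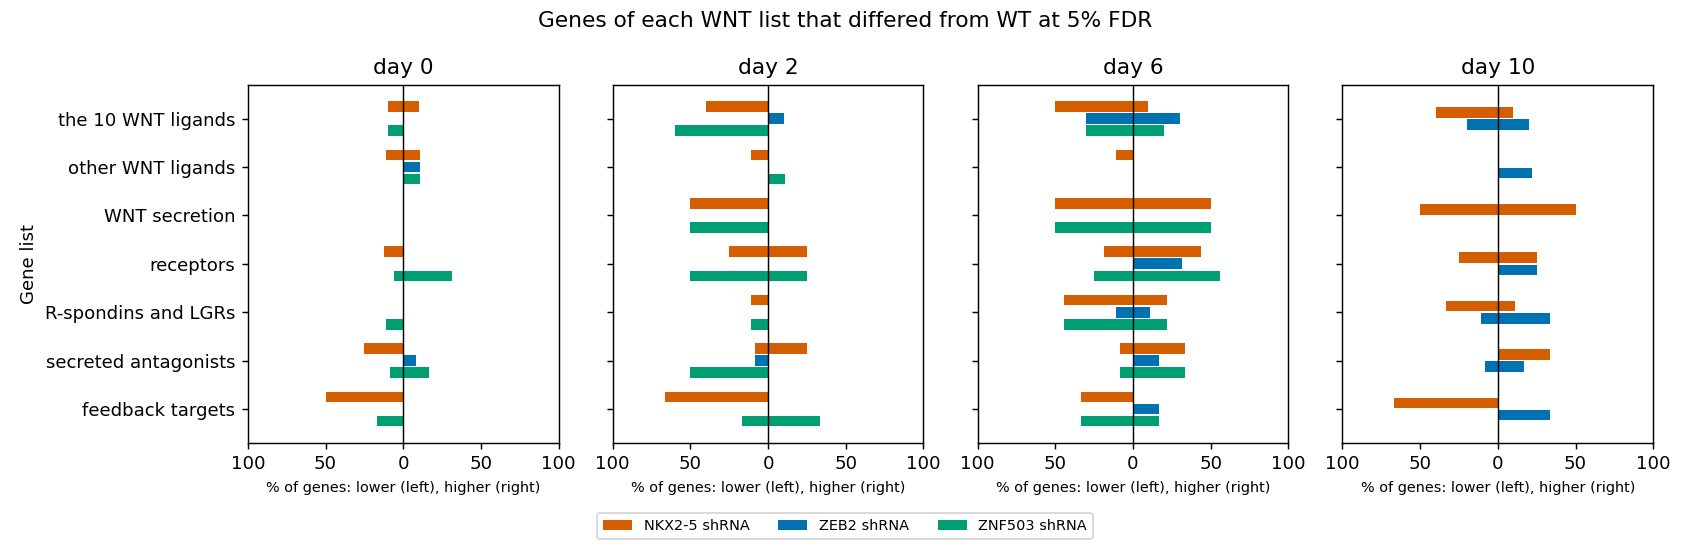
Percent of the genes in each WNT list that were higher (right) or lower (left) than WT at 5% FDR, by shRNA line, with a panel for each day and untested genes kept in the denominator. The list of secretion genes holds PORCN and WLS, so that each makes 50%, and at day 6 one is higher and the other lower in NKX2-5 and ZNF503 shRNA cells.

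The 2 secretion genes moved apart at day 6. PORCN, the enzyme that IWP2 inhibits, averaged 140 CPM in ZNF503 and 40.1 in NKX2-5 shRNA cells against 8.79 in WT, log2 fold changes of 3.98 ± 0.31 and 2.18 ± 0.29 (edgeR, adjusted p = 7.27e-07 and 5.9e-05). WLS, the carrier, averaged 114.9 and 101.3 against 334 CPM, log2 fold changes of -1.55 ± 0.11 and -1.73 ± 0.11 (edgeR, adjusted p = 3.34e-07 and 1.03e-07). In ZEB2 shRNA cells neither passed the test, with 12.9 and 357 CPM. In WT itself WLS rose from 1.43 CPM at day 0 to 36.8 at day 2 and 334 at day 6.

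Among the 16 receptors and co-receptors, FZD2, a Frizzled receptor, was the one called against WT, in 2 lines at day 0, at 5.34 CPM in NKX2-5 and 30.9 in ZNF503 shRNA cells against 12.4 in WT, log2 fold changes of -1.22 ± 0.14 and 1.31 ± 0.14 (edgeR, adjusted p = 0.000402 and 0.000277). In the ZNF503 line 9 receptors were higher and 4 lower at 5% FDR at day 6, where the median log2 fold change over all 16 was 0.59, and 8 were lower and 4 higher at day 2, where it was -0.34. The shares of all genes passing were 55.7% at day 6 and 26.9% at day 2.

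R-spondins strengthen WNT signals through LGR receptors. RSPO3 in WT averaged 2.94 CPM at day 2, 106.6 at day 6 and 407 at day 10. It was lower in ZNF503 shRNA cells at day 2 by -2.56 ± 0.40, and at day 10 lower in NKX2-5 by -3.52 ± 0.39 and in ZEB2 shRNA cells by -3.01 ± 0.38 (edgeR, adjusted p = 0.000279, 0.000795 and 0.00415). At day 6 it stood above WT in NKX2-5 and ZNF503 shRNA cells, with 204 and 186 CPM, and below WT in ZEB2 shRNA cells, with 42.9 CPM. RSPO2 averaged 22.1 CPM in WT at day 6 and was lower by -3.54 ± 0.24 in NKX2-5 and by -4.75 ± 0.28 in ZNF503 shRNA cells (edgeR, adjusted p = 2.05e-07 and 8.93e-08), while ZEB2 shRNA cells had 18.4 CPM and did not pass. LGR5 was higher in ZEB2 shRNA cells, with 71.4 against 5.17 CPM at day 6 and 8.63 against 0.103 at day 10, log2 fold changes of 3.79 ± 0.22 and 5.96 ± 0.94 (edgeR, adjusted p = 1.18e-06 and 0.00771). The WT mean of LGR5 at day 10 lies under the level of 3 counts in either WT library, 0.155 and 0.323 CPM. The size of that day 10 fold is therefore uncertain. LGR6 was higher in NKX2-5 shRNA cells at day 10, with 10.9 against 0.155 CPM, and at day 6 RSPO4 in the ZNF503 line lay below WT at least 4.46-fold (edgeR, adjusted p = 0.00134 and 0.00426).

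Secreted antagonists bind WNTs or their receptors. In WT, CER1 averaged 4.14 CPM at day 0, 1907 at day 2 and 1.24 at day 6, and DKK4 457 CPM at day 2 with its neighbouring days at the floor. CER1 at day 0 differed from WT in all 3 lines, with log2 fold changes of -1.51 ± 0.29 in NKX2-5, 1.42 ± 0.26 in ZEB2 and -4.39 ± 0.37 in ZNF503 shRNA cells (edgeR, highest adjusted p = 0.0109), and SFRP1 was lower in NKX2-5 shRNA cells, at 53.4 against 135.7 CPM (edgeR, adjusted p = 7.51e-05). At day 6 CER1 was higher in ZEB2 shRNA cells by 3.49 ± 0.34, and NOTUM lower in NKX2-5 shRNA cells by -3.13 ± 0.62 (edgeR, adjusted p = 3.16e-05 and 0.00124). At day 2, 6 of the 12 passed 5% FDR in ZNF503 shRNA cells and all 6 were lower, the median log2 fold change over the 9 tested being -1.07, and DKK1 and NOTUM, by -2.02 ± 0.23 and -2.36 ± 0.36, met the study's threshold (edgeR, adjusted p = 1.37e-05 and 0.000218). In NKX2-5 shRNA cells at day 2, 3 were higher and 1 lower, with a median of -0.13. Of all genes tested at day 2, 26.9% passed 5% FDR in ZNF503 and 26.7% in NKX2-5 shRNA cells. FRZB, an antagonist that resembles Frizzled, averaged 276 CPM in NKX2-5 and 340 in ZNF503 shRNA cells at day 6 against 32.4 in WT, and 452 CPM in NKX2-5 shRNA cells at day 10 against 21.8 (log2 fold changes of 3.07 ± 0.27, 3.38 ± 0.27 and 4.36 ± 0.62, edgeR, adjusted p = 1.65e-06, 1.02e-06 and 0.00181).

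The 6 feedback targets AXIN2, LEF1, TCF7, NKD1, SP5 and APCDD1 are genes that canonical signalling is known to switch on. All 6 rose in WT from day 0 to day 2 at 5% FDR, with a median log2 change of 1.45, and 5 fell and 1 rose from day 2 to day 6. Of all genes tested, 44.1% and 49.8% passed in these steps. In NKX2-5 shRNA cells 3, 4, 2 and 4 of the 6 targets differed from WT at days 0, 2, 6 and 10, and all of these were lower. The shares of all genes tested were 15.9%, 26.7%, 49.1% and 43.9%. In ZNF503 shRNA cells 1 was lower at day 0, 1 lower and 2 higher at day 2, and 2 lower and 1 higher at day 6, while WNT3 and WNT3A were lower in both lines at day 2. The shares of all genes in this line were 7.53%, 26.9% and 55.7%. Day 6 counts of both lines are not read as particular to the feedback targets. At day 0 APCDD1 was called in NKX2-5 and SP5 in ZNF503 shRNA cells, with log2 fold changes of -2.13 ± 0.20 and -2.65 ± 0.68 (edgeR, adjusted p = 0.000102 and 0.0372). LEF1, which carries the beta-catenin signal to DNA, was the one called at day 6 in both lines, with 5.67 CPM in NKX2-5 and 2.68 in ZNF503 shRNA cells against 55.4 in WT, log2 fold changes of -3.28 ± 0.21 and -4.35 ± 0.23 (edgeR, adjusted p = 1.03e-07 and 3.31e-08). NKD1, a feedback inhibitor, was called in ZEB2 shRNA cells at day 10, with 43.6 against 3.01 CPM and a log2 fold change of 3.87 ± 0.51 (edgeR, adjusted p = 0.00443).

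Genes with the pattern most like each ligand were found by Pearson's r of log2 group means over the 15 groups, among 17030 genes, as a description in which groups of 1 line or day share their background. WNT11 was most like RSPO3 (r = 0.991), the R-spondin described above, and WNT2 most like TRIM63 (r = 0.991), which encodes a ubiquitin ligase of striated muscle. WNT8A and WNT3A both had DLGAP2 first (r = 0.983 and 0.972), and WNT3A came second for WNT8A (r = 0.958). WNT3 was most like FGF4 (r = 0.931), a growth factor of ESCs and the primitive streak, and WNT5A most like CNTFR (r = 0.918). The first genes of the other ligands were KCNA1 for WNT5B (r = 0.919), PAQR6 for WNT2B (r = 0.924), UMODL1 for WNT4 (r = 0.882) and TNFSF15 for WNT6 (r = 0.982). Second came ARMCX3 for WNT11 (r = 0.983), LINC00158 for WNT2 (r = 0.985), OR52A5 for WNT3A (r = 0.969), TNS4 for WNT3 (r = 0.917), CLCN4 for WNT5A (r = 0.908), FNDC5 for WNT5B (r = 0.901), GIPR for WNT2B (r = 0.914), CDH24 for WNT4 (r = 0.858) and VTCN1 for WNT6 (r = 0.977).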

How the data were processed

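Total RNA libraries of H1 cells were made by the study with a stranded kit. The authors mapped paired-end reads to GRCh37 with TopHat2 2.0.14, Bowtie2 2.2.1.0 and SAMtools 0.1.19.0 per the submitters' processing notes, counted reads per RefSeq gene region with RSeQC, and deposited the raw read counts used here, with no normalization. RefSeq accessions were matched to symbols for 40285 of 41627 rows (97.1% of counts), and the row with the largest total stood for each gene, since rows of 1 gene share reads.

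Of 34 columns, 4 (day 10 replicates 1 and 2 of WT and of ZEB2 shRNA cells) were left out, because they have 1077 rows more than there are accessions and their rows do not line up with the others (rank correlation of aligned blocks with replicate 3 at most 0.0131, against at least 0.984 for replicate 4). The 30 libraries used held 9189943 to 90814577 counts, and counts of 3 or fewer were treated as the floor, which covers counting error only. Small counts were odd in only 39.1% to 43.5% of cases, so that both mates of a pair may have been counted. Replicates differed by more than sampling noise in every group (chi-square per gene 5.33 to 107).

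Counts were fitted with edgeR 4.0.16 (R 4.3.3): TMM factors, filterByExpr, and a quasi-likelihood test with p-values adjusted by the Benjamini-Hochberg method across the genes tested. Each day was fitted with its groups for comparisons between lines, each line with its days for comparisons over time, and all libraries together for differences between changes. The scripts were tested on simulated data. Thresholds were those of the study. All 10 ligands were described on every day, and from the called genes of each pathway list the 2 that rose most and the 2 that fell most were named for each comparison with WT, with a few of the changes over time in WT. Values of WLS, and of other days for genes so named, are given besides. For each ligand the 2 genes with the most similar group means were named. The ligands and lists were chosen with earlier results of these data known. Alternatives were other scaling factors, no filter, summed rows, DESeq2 1.42.0, a replicate block, 1 fit of all libraries, and leaving out each library. Start-site sequences came from RefSeq on GRCh38.p14, and gene positions from an annotation of GRCh37, the build of the counts.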

Additional observations from a re-analysis of the deposited data

Results flagged for a closer look

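These are the ligands whose change between consecutive days in an shRNA line differed from the change in WT cells at the study's thresholds, by edgeR's quasi-likelihood test of the difference between the 2 changes over all 30 libraries. WNT5A had 3 of them. Its change from day 2 to day 6 differed from that in WT by -3.367 in NKX2-5 shRNA cells (adjusted p = 2.346e-09) and by -4.242 in ZNF503 shRNA cells (adjusted p = 1.167e-10), and its change from day 6 to day 10 in NKX2-5 shRNA cells differed by 3.537 (adjusted p = 1.453e-09), all on the log2 scale.

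WNT4 had 3 as well. Its change from day 6 to day 10 differed from WT by 10.1 in NKX2-5 (adjusted p = 0.000176) and by 8.094 in ZEB2 shRNA cells (adjusted p = 0.006351). Its change from day 0 to day 2 in ZNF503 shRNA cells differed by -2.431 (adjusted p = 0.06132). The ZEB2 difference was lost without any 1 of the ZEB2 shRNA or WT libraries of days 6 and 10 (adjusted p 0.0113 to 0.0647), and the ZNF503 one without ZNF503 shRNA day 0 replicate 2, ZNF503 shRNA day 2 replicate 1, either WT library of day 0 or WT day 2 replicate 2 (adjusted p 0.149 to 0.272).

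The rise of WNT3A from day 0 to day 2 differed from WT by -7.955 in NKX2-5 (adjusted p = 0.02086) and by -7.56 in ZNF503 shRNA cells (adjusted p = 0.008057), and the first was lost without NKX2-5 shRNA day 0 replicate 2 or either WT library of day 0 (adjusted p 0.133 to 0.144). WT had no WNT3A reads at day 0 and no WNT4 reads at day 10, so the sizes of those WNT3A and WNT4 differences depend on the prior count and are no bound.

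No group held the 4 libraries needed to look for a library far from the others.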

How the results depend on the processing

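The study's thresholds gave 13 calls against WT, 33 over time, 14 between shRNA lines and 8 for differences between changes. Taking 5% FDR with any fold instead gave 40, 59, 35 and 19. The other alternatives stayed within 1.5 times of the first counts: 10 to 17, 30 to 34, 12 to 14 and 8 to 9. Leaving out 1 library at a time gave 10 to 15, 28 to 34, 12 to 15 and 6 to 9. Of the 13, 33, 14 and 8 calls, 6, 20, 7 and 5 were called under every alternative, and no fold that passed turned its direction. Of the single folds that passed, 1 fit of all libraries lost 19 of 137 and DESeq2 12 of 157, among them WNT8A in ZNF503 shRNA cells at day 2 in the former (adjusted p = 0.155). With plain library totals the median log2 fold change over genes moved by up to 0.208.

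Replicate numbers were not taken to pair the samples, since same-numbered deviations correlated over 0.1 in 0, 4 and 0 of 6 pairs of groups at days 0, 2 and 6 (-0.275 to 0.04, 0.00102 to 0.398 and -0.146 to 0.0833), a hint of shared deviations at day 2 only. There the block moved the genes at 5% FDR from 4403 to 5434 in NKX2-5, 81 to 186 in ZEB2 and 4443 to 5284 in ZNF503 shRNA cells, while at day 0 it moved them from 2681 to 2032, 664 to 410 and 1272 to 698. With the replicate number as a block the counts were 12, 30, 14 and 8, and day 10 comparisons that share no numbers kept the fit without it.

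Over time, WNT11 in WT to day 2 missed the threshold without WT day 0 or day 2 replicate 2 (log2 change 1.77 and 1.81). Ligands under 1 CPM rest on few reads, which limits WNT2B, WNT3A, WNT4, WNT6 and WNT8A most. The day 0 calls of WNT3A rest on 8 to 24 reads in each shRNA library against 0 in WT.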
